A study of Mus musculus with 5 samples.

Results

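Transcription of immediate early genes is switched on within a short time of neuronal firing. Arc, Fos, Egr1, Npas4, Nr4a1, Junb and Bdnf were grouped here as such genes, and how soon each responds was not measured. Their place in the A and B compartments of the nucleus was read from Hi-C of mouse hippocampal neuronal nuclei. For each gene, the 50 kb bins that overlap it in the mouse build mm9 were taken with 2 bins on either side. This gave 38 bins, 6 each at Arc, Nr4a1 and Bdnf and 5 each at Fos, Egr1, Npas4 and Junb, of 47652 bins analysed. All 38 had a value in each of the 5 libraries, and 10 of them overlap a gene.

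The libraries fall into 3 states by their titles, Basal (2 libraries), Early (1 library) and Late (2 libraries), made from sorted neuronal nuclei of the hippocampus. The strain label of all 5 names ArcCreERT2 and the R26R-STOP-floxed reporter of yellow fluorescent protein (eYFP), the genotype label is +/+, and the treatment label is foot shock and collection on day 0 without recall. In such mice a tamoxifen-dependent Cre driven by Arc switches on a lasting reporter in neurons active around a dose of 4-Hydroxytamoxifen, which was given before contextual fear conditioning, the pairing of a place with a shock. The protocol describes collection 1.5 to 2 h and 5 days after conditioning, but the labels do not tie these times to Early and Late, and no source used here gives the age of the mice, the gate behind each library or the position of the Cre relative to the Arc gene. Each group had 100000 nuclei from 2 animals. PC1 gives no RNA level, so the neuronal identity rests on the sort for GFP and for NeuN, which marks nuclei of neurons.

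Hi-C ligates and reads fragments that were neighbours inside the nucleus. From the contact matrix the first principal component, PC1, splits each chromosome into compartment A, gene-rich and mostly active, and compartment B, gene-poor and mostly silent. PC1 is a signed score without a unit, and a positive value marks A in HOMER, the program used. In neurons, calcium entry and growth factor signals activate the factors CREB, SRF and MEF2, which start immediate early genes without new protein synthesis. Fos, Junb, Egr1, Npas4 and Nr4a1 encode transcription factors, whereas Arc and Bdnf encode proteins that act at synapses.

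The stretches before the transcription starts are shown because these starts lie in the gene bins and because the cyclic AMP response element, which CREB binds, is known from promoters of such genes. They come from RefSeq on the build GRCm38.p6, which is not the build of the bins. Windows for 5 of the 7 genes were taken from the table, and the 250 bases before the start are printed. Capitals mark the letters TGACG, the core of that element, on either strand (CGTCA where it lies on the other strand). The windows are chr12:85473640-85473889 (plus strand) for Fos, chr19:4989972-4990221 (minus strand) for Npas4, chr15:101266596-101266845 (plus strand) for Nr4a1, chr8:84978749-84978998 (minus strand) for Junb and chr2:109692186-109692435 (plus strand) for Bdnf.
Fos: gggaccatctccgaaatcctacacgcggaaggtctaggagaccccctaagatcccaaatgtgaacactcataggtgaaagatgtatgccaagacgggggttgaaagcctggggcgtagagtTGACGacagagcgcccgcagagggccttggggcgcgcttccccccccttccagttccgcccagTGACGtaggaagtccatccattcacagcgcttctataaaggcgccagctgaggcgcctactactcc
Npas4: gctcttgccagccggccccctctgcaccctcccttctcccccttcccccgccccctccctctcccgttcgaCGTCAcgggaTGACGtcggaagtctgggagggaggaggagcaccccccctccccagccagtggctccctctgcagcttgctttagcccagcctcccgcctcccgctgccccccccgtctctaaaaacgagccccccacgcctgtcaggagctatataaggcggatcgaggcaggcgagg
Nr4a1: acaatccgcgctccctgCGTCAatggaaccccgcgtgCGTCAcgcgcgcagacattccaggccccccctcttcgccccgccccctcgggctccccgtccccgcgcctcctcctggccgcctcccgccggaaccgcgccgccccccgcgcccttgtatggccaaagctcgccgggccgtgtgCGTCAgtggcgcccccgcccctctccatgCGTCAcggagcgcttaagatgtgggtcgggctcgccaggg
Junb: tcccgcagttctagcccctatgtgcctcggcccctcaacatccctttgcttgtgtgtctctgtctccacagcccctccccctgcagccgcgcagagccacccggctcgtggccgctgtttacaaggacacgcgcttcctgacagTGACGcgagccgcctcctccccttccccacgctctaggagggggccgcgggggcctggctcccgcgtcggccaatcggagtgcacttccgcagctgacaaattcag
Bdnf: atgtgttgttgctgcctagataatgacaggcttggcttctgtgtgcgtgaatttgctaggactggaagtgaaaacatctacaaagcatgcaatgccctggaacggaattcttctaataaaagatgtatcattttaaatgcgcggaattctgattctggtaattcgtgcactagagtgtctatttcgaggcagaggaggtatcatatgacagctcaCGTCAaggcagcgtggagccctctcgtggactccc

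Npas4 and Fos held 2 core sites each, Nr4a1 held 4 and Junb held 1. Bdnf starts from many first exons, and 1 of its 7 windows held the core site, starting 35 bases before the start. The core site was present in 17.8% of 32851 windows of the table. The 11 windows reported cover 5 of the 7 genes. Arc had no window in the table and Egr1 was left out, so nothing is said here of Arc and Egr1. The complete element TGACGTCA occurred in none of these 11 windows and in 1.55% of the table. The AP-1 site TGANTCA was found in 1 further Bdnf window (6.75% of the table). Among the 11 windows, the EGR site GCGNGGGCG was found in Nr4a1 alone (4.70%). The CArG box of SRF was found in none of the 11 windows, against 1.47% of the table. All motifs were searched on both strands, and a complete element also counts as a core site. The search covered only the 250 bases before each start, so it cannot tell whether sites lie farther out.

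Of the 7 loci, 6 lay in A in all 5 libraries and Bdnf lay in B in all 5. By single bins, 31 of 38 were in A and 6 in B in every library, and 1 had mixed signs. Over all bins, 38.7% were in A and 42.4% in B in every library, and 18.8% had mixed signs. Averaged over the bins of a locus and over 5 libraries (± SD of libraries), PC1 was highest at Junb, 1.76 ± 0.18, followed by Egr1 at 1.63 ± 0.35 and Nr4a1 at 1.54 ± 0.12. Npas4 and Fos both averaged 1.36, with SDs of 0.36 and 0.16. Arc had 1.20 ± 0.26 and Bdnf -0.69 ± 0.15.

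Each chromosome has its own PC1, so levels on different chromosomes share no exact scale. The percentile of each locus among the bins of its own chromosome ran from 84.9 for Arc to 97.5 for Junb, and Bdnf stood at 30.3. Apart from Arc and Bdnf, neighbours in the order differed by less than the SD over libraries of at least 1 of the pair. Arc and Nr4a1 share chromosome 15, and Nr4a1 was the higher of the pair in 5 of 5 libraries. Junb ranked 1st or 2nd of the 7 in 4 libraries and 3rd in Late replicate 1. Egr1 ranked 1st in both Basal libraries and in Late replicate 1, but 4th in Early and in Late replicate 2.

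**Figure D1:**
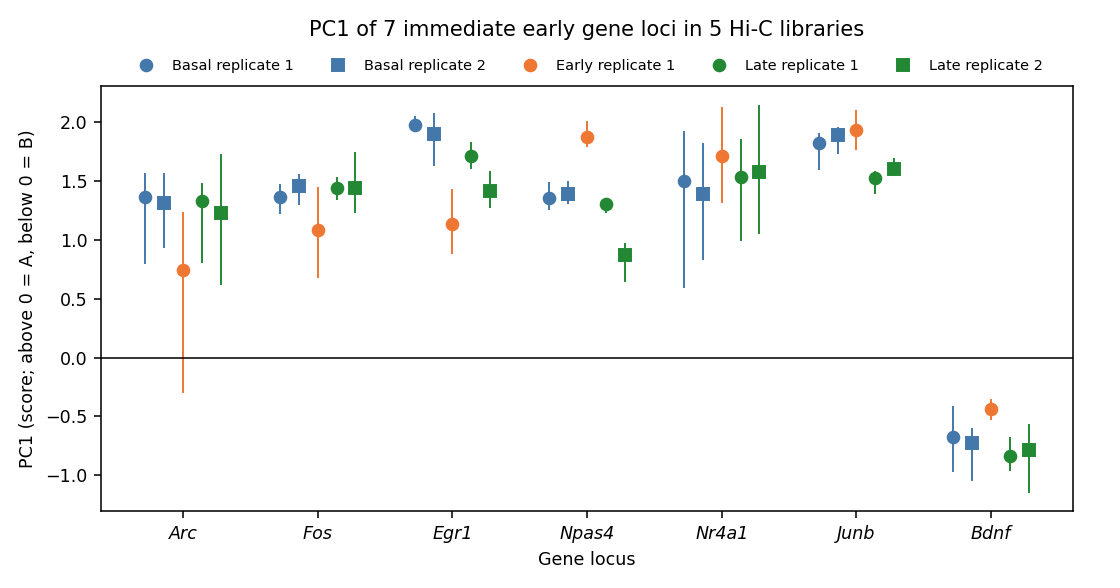
PC1 of the 7 loci (vertical axis, score) by gene (horizontal axis) in each library. Points are the mean over the 5 or 6 bins of a locus and vertical lines run from its lowest to its highest bin. Bdnf lies below 0 in all 5 libraries, and 1 bin at Arc is below 0 in Early.

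Each A locus sat in a run of A bins of at least 1.75 Mb in every library. Counted over A bins, so that long runs weigh by their length, the median run that held a bin was 2.65 to 3.70 Mb in the 5 libraries, so runs of this length are common. Fos, whose protein joins Jun proteins in the AP-1 factor, had A runs of 4.10 to 4.15 Mb. Those of 4.15 Mb, in Basal replicate 1 and Late replicate 1, stopped at a missing bin and may be longer. The run at Egr1, a zinc finger factor, was 2.80 Mb long in Early and 3.00 to 3.05 Mb in the other libraries. The run at Npas4, a factor induced by calcium entry in neurons, was 3.30 to 3.45 Mb long. In all 5 libraries its distal end was a missing bin, so these lengths are lower limits. At Nr4a1, an orphan nuclear receptor, it ran from 4.55 Mb in Basal replicate 1 to 10.2 Mb in Early. At Junb, an AP-1 subunit, it was 3.45 Mb in both Basal libraries, 2.70 Mb in Early, and 13.0 and 5.80 Mb in Late.

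Of the 6 loci in A, Arc lay nearest to a border in 4 of 5 libraries. The exception was Basal replicate 1, in which the border nearest to Nr4a1 was 300 kb away. The Arc protein takes part in removing AMPA receptors from the synapse. The distal border was 350 and 300 kb from the gene bins for Basal, 50 kb for Early and 450 and 300 kb for Late. In the gene order of GRCm38.p6, Arc lies between Mroh4 and Jrk, Fos between Tmed10 and Jdp2, Egr1 between Reep2 and Etf1, Npas4 between Mrpl11 and Slc29a2, Nr4a1 between Grasp and Atg101, Junb between Prdx2 and Hook2, and Bdnf between Kif18a and Lin7c.

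The comparison of Early with Basal asks how these loci sat in the Early state, from 1 library. In limma, a linear model with variances shared over bins, 10 of the 38 bins passed an adjusted p of 0.05, against 19.9% of all bins. Of these, 8 fell in Early (9.98% of all bins fell) and 2 rose (9.97% of all bins rose). The falls lay at Egr1 (4 of 5 bins), Arc (3 of 6) and Fos (1 of 5), and the rises at Npas4 (1 of 5) and Nr4a1 (1 of 6). With chromosome medians aligned between libraries, the counts were 10 falls and 1 rise, where 14.6% of all bins fell and 8.66% rose. No bin of Junb or Bdnf passed. Neighbouring bins share reads, so the 10 bins are not 10 separate events. Among bins whose mean PC1 over the 5 libraries was above 1, which include 30 of the 38, 13.1% fell and 4.88% rose. The median difference over the 38 bins was 0.074, against 0.00078 over all bins, and the median absolute difference 0.37, against 0.27.

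At Egr1 the locus mean was 1.13 in Early, against 1.98 and 1.90 in Basal. The Basal libraries lay close together and Early lay below both, while Late took values between them, 1.71 and 1.42. The bin that holds Egr1 was at 0.89 in Early, against 1.95 and 2.01 in Basal, a difference of -1.09 (SE 0.18, limma adjusted p = 0.0056). The locus stayed in A in each of these libraries. Within 1 Mb of Egr1, 22 of 41 bins fell and 1 rose in Early, so the fall was not limited to the gene bin. On chromosome 18 as a whole, 25.7% of bins were called in this comparison, in either direction. With a running mean of 10 Mb removed from each library, the locus difference was -0.38 instead of -0.81, and only the gene bin was still called, with a difference of -0.66 (limma adjusted p = 0.036).

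At Arc the locus mean was 0.74 in Early, against 1.36 and 1.31 in Basal. Late replicates 1 and 2, at 1.33 and 1.23, lay beside the Basal libraries. The bins that overlap Arc itself did not pass the test, with an average of 1.07 in Early, against 1.48 and 1.35 in Basal. The largest difference at this locus lay in its most distal bin, at 74.60 to 74.65 Mb of chromosome 15. That bin had a PC1 of -0.29 in Early, against 0.80 and 0.94 in Basal (difference -1.17, SE 0.16, limma adjusted p = 0.0026). It was the single member bin with a sign in Early opposite to both Basal libraries, while 9.78% of all bins had such a change. Within 1 Mb of Arc, 23 of 42 bins fell in Early and none rose. On chromosome 15 as a whole, 26.7% of bins were called in either direction. With the 10 Mb trend removed the locus difference was -0.083 instead of -0.60, and the distal bin alone was called (difference -0.65, limma adjusted p = 0.027).

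Of the 5 bins at Fos, only the bin that holds the gene was called. This bin was at 0.69 in Early, against 1.47 and 1.48 in Basal (difference -0.79, SE 0.16, limma adjusted p = 0.011). Late replicates 1 and 2 had 1.51 and 1.74 there, both above the Basal libraries. None of the 4 flanking bins passed in Early versus Basal, and their differences ran from -0.40 to 0.022. The locus mean was 1.09 in Early, against 1.37 and 1.46 in Basal. Within 1 Mb of Fos, 6 of 41 bins fell in Early and none rose, so the fall was not limited to the gene bin. The bin 450 kb after the gene bin was at 0.36 in Early, against 1.43 and 1.65 in Basal. On chromosome 12 as a whole, 16.6% of bins were called in either direction. Removing the 10 Mb trend left the gene bin at -0.71 (limma adjusted p = 0.026).

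The other loci took higher or similar values in Early. Npas4 had a locus mean of 1.88 in Early, against 1.36 and 1.39 in Basal, with Early above both in all 5 bins. Its bin at 5.05 to 5.10 Mb of chromosome 19 rose, with 2.00 in Early against 1.26 and 1.43 in Basal (difference 0.65, SE 0.17, limma adjusted p = 0.033). On chromosome 19 as a whole, 43.6% of bins were called in this comparison. With the 10 Mb trend removed, the difference at Npas4 turned from 0.50 to -0.14 and no bin was called. The gene bin itself was at 1.86 in Early, against 1.38 and 1.32 in Basal, and did not pass (limma adjusted p = 0.091).

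Nr4a1 had a locus mean of 1.71 in Early, against 1.50 and 1.39 in Basal. Its called bin, at 101.20 to 101.25 Mb of chromosome 15, lay 2 bins from the gene, with 1.33 in Early against 0.60 and 0.84 in Basal (difference 0.61, SE 0.16, limma adjusted p = 0.033). The bins that overlap Nr4a1 averaged 1.74 in Early, against 1.79 and 1.63 in Basal, so there the groups overlapped. This call held in 6 of 12 alternative fits. These count the same test again, since the fits without a Late library repeat that of only Early and Basal. Junb had a locus mean of 1.94 in Early, against 1.82 and 1.89 in Basal, a difference of 0.079. Of the bins on all analysed chromosomes, 88.1% did not overlap between Early and Basal, a share that 1 library against 2 makes large, and 35 of the 38 did not.

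Early had the highest local noise of the 5 libraries, 0.205 PC1 units per bin, against 0.115 and 0.119 for the Basal libraries and 0.101 and 0.188 for the Late ones. With libraries weighted by that noise, 4 of the 38 bins remained called, against 3505 of all 47652 bins. They were the distal bin of Arc, the gene bin of Fos, and the gene bin of Egr1 with the bin after it. The distal Arc bin was called in 12 of 12 alternative fits, and the gene bins of Fos and Egr1 in 11 each, lost with all sequences of the files in the fit (1 of 38 bins called). Leaving out either Basal library lowered the number of called bins, among the 38 and over all bins. Leaving out either Late library raised both. In Early versus Basal, a fit without a Late library repeats the fit of only the 2 groups, so the 12 alternatives are not 12 separate tests.

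**Figure D2:**
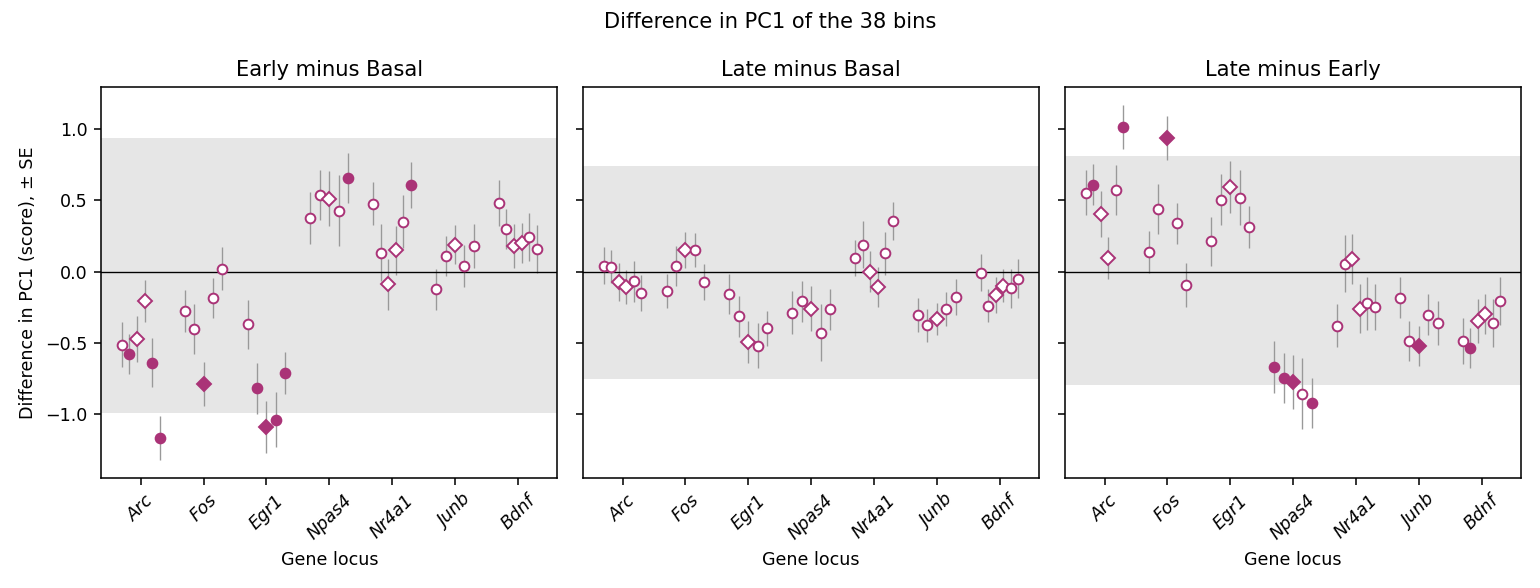
Difference in PC1 (vertical axis, score, ± SE from limma) of each of the 38 bins by locus, in genome order within a locus, for Early minus Basal, Late minus Basal and Late minus Early. Diamonds overlap the gene and circles flank it, filled symbols passed a limma adjusted p of 0.05, and the grey band spans the central 95% of all analysed bins. Filled symbols number 10, 0 and 9 in the 3 panels.

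The comparison of Late with Basal asks whether the loci sat elsewhere in the Late state. In limma, 0 of the 38 bins passed an adjusted p of 0.05, against 16.4% of all bins and 6.30% of the bins with a mean PC1 above 1. With all sequences in the fit, 7 of the 38 had an unadjusted limma p under 0.05, against 13365 of 50542 bins. The median difference over the 38 bins was -0.13, against -0.011 over all bins, and the median absolute difference was 0.16, against 0.20. None of the 38 changed sign between all Late and all Basal libraries, against 5.75% of all bins. In 21 of the 38, the Late and the Basal libraries did not overlap, against 62.0% of all bins.

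The smallest adjusted p belonged to the bin that holds Egr1, with 1.68 and 1.29 in Late against 1.95 and 2.01 in Basal (difference -0.50, limma adjusted p = 0.054). The Egr1 locus mean was 1.56 ± 0.21 in Late and 1.94 ± 0.055 in Basal (SD, n = 2 each), without overlap. Junb came next, with locus means of 1.52 and 1.61 in Late, against 1.82 and 1.89 in Basal. Its replicates lay close together in both states, and the difference was -0.29. With the 10 Mb trend removed, which left 11.9% of all bins called, 2 Junb bins were called lower in Late, the gene bin (difference -0.45, limma adjusted p = 0.036) and the bin before it (-0.50, limma adjusted p = 0.028).

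At Npas4 the locus mean was 1.30 and 0.87 in Late, against 1.36 and 1.39 in Basal. Late replicate 2 was well below the other 3 libraries, and Late replicate 1 was close to Basal. Nr4a1 was at 1.53 and 1.57 in Late, against 1.50 and 1.39 in Basal, a difference of 0.11 that was -0.055 over its gene bins alone. Fos averaged 1.44 ± 0.00021 in Late and 1.41 ± 0.066 in Basal (SD, n = 2 each), so the locus means of both states overlapped. The small Late SD belongs to the locus mean alone, since the Late SDs of single Fos bins ran from 0.049 to 0.17. Arc averaged 1.28 ± 0.071 in Late and 1.34 ± 0.035 in Basal (SD, n = 2 each), again with overlap.

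With chromosome medians aligned, 6 of the 38 bins were called, 3 each at Egr1 and Junb, all lower in Late. Under that setting 9052 of the 47652 bins were called, 5219 of them lower. Without Late replicate 1, 11 bins were called (30.2% of all bins), of which 5 at Npas4, 4 at Egr1 and 1 at Junb were lower and 1 at Nr4a1 was higher. Without Late replicate 2 it was 1 bin, at Junb (19.9% of all bins).

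**Figure D3:**
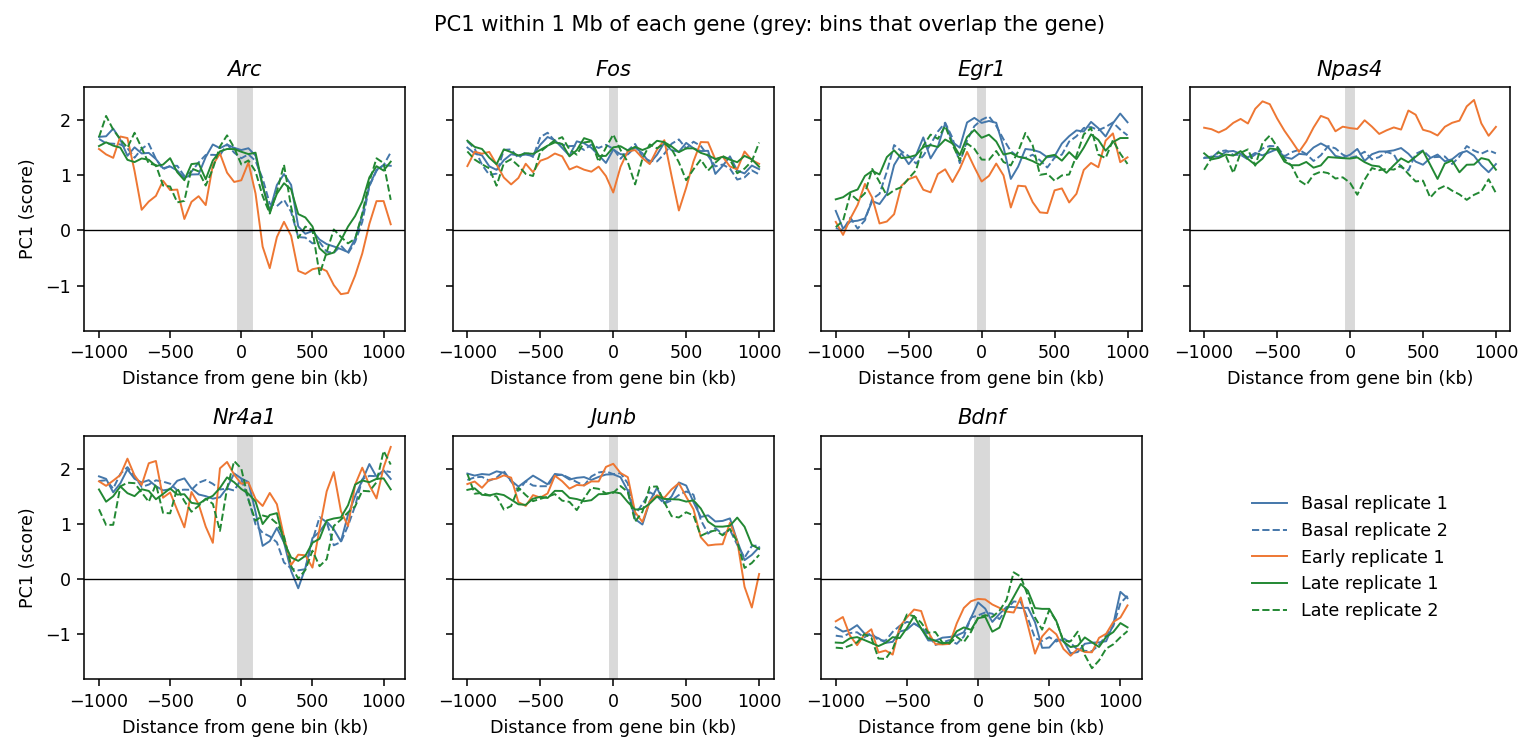
PC1 (vertical axis, score) against the distance from the first bin that overlaps the gene (horizontal axis, kb) for each library, with the gene bins in grey. The Early line lies below the other 4 libraries in 35 of 42 bins around Arc and 32 of 41 around Egr1 and above them in 40 of 41 around Npas4, and around Bdnf nearly all values are below 0.

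Late was set against Early to ask which loci parted between these states. By limma, 9 of the 38 bins passed, against 12.7% of all bins, with 3 higher in Late (6.28% of all bins) and 6 lower (6.44%). Among bins with a mean PC1 above 1, 9.28% were called. The higher bins were 2 at Arc and the gene bin of Fos, and the lower ones were 4 at Npas4 and 1 each at Junb and Bdnf. Both this comparison and Early versus Basal rest on the same lone Early library. The median difference over the 38 bins was -0.19, against -0.0030 over all bins, and the median absolute difference 0.39, against 0.24.

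The gene bin of Fos had 1.51 and 1.74 in Late, against 0.69 in Early, a difference of 0.94 (SE 0.16, limma adjusted p = 0.010). Both Late libraries were above Early. The distal bin of Arc had 0.81 and 0.62 in Late, against -0.29 in Early, a difference of 1.01 (SE 0.16, limma adjusted p = 0.0080). It was again the single bin of the 38 with opposite signs, against 7.56% of all bins.

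The gene bin of Npas4 had 1.31 and 0.87 in Late, against 1.86 in Early (difference -0.77, SE 0.19, limma adjusted p = 0.035). Within 1 Mb of Npas4, 32 of 41 bins were lower in Late and none higher. Without the 10 Mb trend the Npas4 difference was -0.10 instead of -0.79, with no bin called. The gene bin of Junb had 1.58 and 1.56 in Late, against 2.09 in Early (difference -0.52, SE 0.14, limma adjusted p = 0.044), and was called in 5 of 12 alternative fits. These include the fit with the trend removed (difference -0.70, limma adjusted p = 0.028) but not those with quantile normalization, all sequences, noise weights, only the 2 groups, the replicate block or either Basal library left out. No Egr1 bin passed, and its locus mean was 1.71 and 1.42 in Late, against 1.13 in Early. Weighted by local noise, only the distal bin of Arc was called, against 1078 of all bins. With all sequences in the limma fit none of the 38 was called. There, 18 had an unadjusted limma p under 0.05, against 12635 of 50542 bins. Leaving out either Late library raised the number of called bins, among the 38 and over all bins. Leaving out a Basal library repeats the fit of only the 2 groups here. Quantile normalization gave 3 higher and 3 lower bins, with 5322 called over all bins. With the replicate block the split turned to 6 higher and 3 lower, in a fit that called 12.2% of all bins. It gained 2 Egr1 bins and 1 further Arc bin, and lost 1 bin each at Npas4, Junb and Bdnf.

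Bdnf, which encodes the neurotrophin that acts through the receptor TrkB, was the exception in compartment. Its locus mean was -0.67 and -0.73 for Basal, -0.44 for Early and -0.84 and -0.79 for Late. All 30 values of its 6 bins were below 0, from -1.14 to -0.36. The mean of the 2 gene bins was closer to 0 than the mean of the 4 flanking bins in 5 of 5 libraries, by 0.29 and 0.14 for Basal, 0.11 for Early and 0.21 and 0.16 for Late. Within 1 Mb, 40 of 42 bins were in B in every library and none was in A in every library.

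The run of B bins around Bdnf was 7.45 Mb long in both Basal libraries, 5.50 Mb for Early and 6.30 and 3.95 Mb for Late. Late replicate 2 had its border at 150 kb from the gene bins, where 2 bins stood at 0.12 and 0.04. The Bdnf difference was 0.26 for Early minus Basal and -0.11 for Late minus Basal, with no bin past the test in either. Against Early, 1 of 6 bins fell in Late, the bin before the gene, with -0.92 and -0.96 in Late against -0.40 in Early (difference -0.54, SE 0.14, limma adjusted p = 0.040). That call was kept in 3 of 12 alternative fits.

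The loci were also compared by the shape of their values over the 5 libraries, each locus mean minus its own average. Arc and Fos were nearest to each other, with a mean absolute difference of 0.091, and both had Early as their lowest library. Junb and Bdnf were nearest to each other, at 0.086, with Early as the highest and the Late libraries as the 2 lowest values. Egr1 was nearest to Arc (0.14), Npas4 to Bdnf (0.17) and Nr4a1 to Bdnf (0.10). With 5 libraries, these distances describe the libraries and carry no test.

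**Figure D4:**
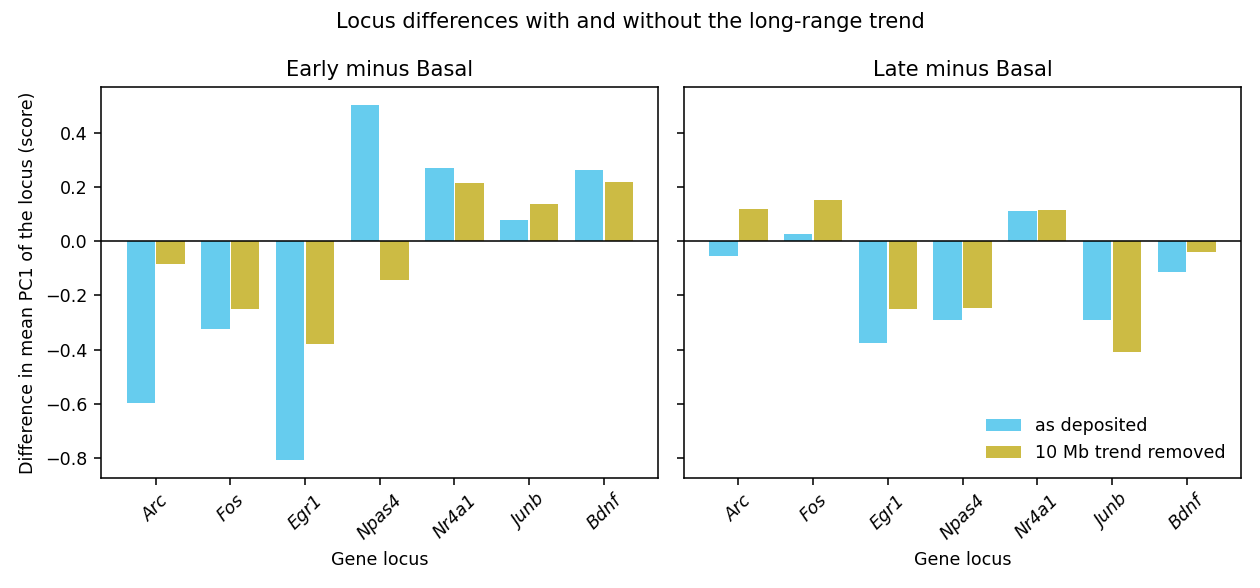
Difference in the mean PC1 of each locus (vertical axis, score) for Early minus Basal and Late minus Basal, as deposited and after a running mean of 10 Mb was removed from each library. Bars start at 0. The Early difference at Arc shrinks from -0.60 to -0.083 and that at Npas4 changes sign, while those at Fos (-0.33 and -0.25), Nr4a1 (0.27 and 0.21) and Bdnf (0.26 and 0.22) stay closer.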

How the data were processed

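PC1 of Hi-C matrices was measured in 5 libraries of hippocampal neuronal nuclei. The authors deposited PC1 as a signed score for each 50 kb bin, computed with HOMER on mm9, per the submitters' processing notes, in windows of 100 kb by the names of the tables. No source used here gives versions, aligner, read filters or the way the sign was set. On each analysed chromosome the SD of each library was 1.00 to 1.01, so libraries cannot be compared by how strong their compartments are. Without read counts, depth is unknown and counting errors have no estimate.

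The libraries together listed 51811 bins, of which 50542 were common to all 5. Chromosomes were kept where the lowest Pearson r between 2 libraries reached 0.5, which left out chromosome 7 (lowest r -0.976) and kept the other 18 autosomes and X, with 47652 bins. PC1 was compared with limma 3.58.1 in R 4.3.3, with all 5 libraries in 1 fit, 2-sided, with Benjamini-Hochberg adjustment over all 47652 bins at 0.05 and 2 residual degrees of freedom (6.60 added by the prior). Early, with 1 library, is assumed to have the spread of the other groups. The animals behind each library are not stated, so p-values measure only the spread between these libraries, which may be technical. Locus values are means over bins and carry no test. Local noise was estimated from differences between libraries, as each bin's deviation from the bins 100 kb on either side. All 7 genes are named, with the bins called in a comparison. The members and lists were chosen with earlier results of these data known. A list of other activity-regulated genes was not used here, since the positions given were for these 7 genes and no mm9 annotation was at hand. Python 3.11.15, numpy 2.4.6, pandas 2.3.3 and matplotlib 3.10.9 were used for the rest.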

Additional observations from a re-analysis of the deposited data

Results flagged for a closer look

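At 9 of the 38 bins the change from Basal differed between Early and Late by the limma test of Late minus Early, each with an adjusted p under 0.05. Arc had 2 such bins, with a difference of 0.61 at 74.40 to 74.45 Mb and of 1.01 at 74.60 to 74.65 Mb. The gene bin of Fos had 0.94. Npas4 had 4, with -0.67 at 4.85 to 4.90 Mb, -0.75 at 4.90 to 4.95 Mb, -0.77 in the gene bin and -0.92 at 5.05 to 5.10 Mb. The gene bin of Junb had -0.52, and the Bdnf bin at 109.45 to 109.50 Mb had -0.54. Over all bins, 12.7% were called in this test. By chromosome the share was 19.1% on chromosome 15 (Arc), 14.6% on 12 (Fos), 40.2% on 19 (Npas4), 8.57% on 8 (Junb) and 9.47% on 2 (Bdnf). All 9 rest on 1 Early library.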

How the results depend on the processing

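Among the 38 bins, the count called in Late versus Basal was 0, and it was 6 with chromosome medians aligned, 2 with the 10 Mb trend removed, 3 weighted by local noise, 5 with the mean of 5 bins, 2 with the replicate block and 5 at an adjusted p of 0.1. Leaving out 1 library gave 0 to 11. In Early versus Basal it was 10, and 3 with the trend removed, 1 with all sequences as deposited, 4 weighted by noise, 18 with only the 2 groups compared, 22 with the mean of 5 bins, 2 of the 10 gene bins and 16 at an adjusted p of 0.1. Leaving out 1 library gave 4 to 18. In Late versus Early it was 9, and 4 with the trend removed, 0 with all sequences, 1 weighted by noise, 25 with the mean of 5 bins, 3 of the 10 gene bins and 16 at an adjusted p of 0.1. Leaving out 1 library gave 6 to 19.

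Over all bins, Late versus Basal called 7819. It called 9052 with chromosome medians aligned, 5694 with the trend removed, 10999 weighted by noise and 8752 with the replicate block. It called 0 with all sequences, 16007 with the mean of 5 bins and 2641 to 14390 without 1 library. At an adjusted p of 0.1, calls over all bins were not counted. Early versus Basal called 9503, but 5588 with the trend removed, 2084 with all sequences, 3505 weighted by noise, 17853 with only the 2 groups, 16944 with the mean of 5 bins and 4248 to 17853 without 1 library. Late versus Early called 6062, but 3335 with the trend removed, 0 with all sequences, 1078 weighted by noise, 3799 with only the 2 groups, 12834 with the mean of 5 bins and 3799 to 12608 without 1 library. At an unadjusted p under 0.05, limma with all sequences gave 13365 bins for Late versus Basal and 12635 for Late versus Early. This setting adds 2684 bins of chromosome 7 and 206 of other sequences, and its prior had 2.58 instead of 6.60 degrees of freedom. The cause of the changes was not tested.

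Of 280 locus differences under an alternative, 226 moved by less than 1 SD. Many of these could not move. The difference is the same by construction with all sequences, with only the 2 groups, and without a library outside the comparison. The same holds for the replicate block in Late versus Basal. The 226 are therefore no measure of stability. The sign changed in 4, of which 1 was at a locus with a called bin, Npas4 in Early versus Basal at -0.14 with the trend removed. The other 3, in Late versus Basal, were Arc with the trend removed (0.12, as deposited -0.054), Nr4a1 with gene bins only (-0.055, against 0.11) and Fos without Basal replicate 1 (-0.020, against 0.027). Aligned medians moved the split of all Early versus Basal calls to 4127 higher and 6979 lower, from 4749 and 4754. They brought the Early minus Basal difference at Nr4a1 to 0.066 from 0.27 and at Bdnf to 0.11 from 0.26. At Arc that difference grew to -0.80 from -0.60. Libraries with the same replicate number did not deviate together (correlation 0.010 over bins between the Basal and the Late pair), so the block pairs nothing. It gave 11 called bins in Early versus Basal (20.1% of all bins) and 9 in Late versus Early (12.2%). The latter were 6 higher and 3 lower instead of 3 and 6, where 6.03% of all bins were higher and 6.18% lower. The change of sign at 1 Arc bin held under the 3 alternatives run. The unknown depth and the bin length limit what can be said of a single gene.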
